A study of Mus musculus with 6 samples.

Results

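The primitive streak and mesoderm regulators described here were 10 genes chosen by name: T, Mixl1, Gsc, Mesp1, Evx1, Wnt3, Isl1, Gata2, Msx1 and Twist1. They were chosen with earlier results of these data known. All probes that the platform annotation pairs with them were taken, which gave 10 probes for 9 genes, out of 25697 probes and 16593 named genes in all. Mixl1 had 2 probes and the other 8 genes 1 each. The annotation used here pairs no probe with T, so T is not analysed here. The cells were E14, a mouse embryonic stem (ES) cell line, measured on Illumina bead arrays as total RNA. In the control group, 3 samples carried the empty pSuper vector, and in the knockdown group 3 samples carried a short hairpin RNA (shRNA) against REST, each for 72 h. REST is a repressor that silences neuronal genes in cells that are not neurons. Nothing in the labels says that the 3 samples of a group came from different cultures, and p-values then cover only the variation among them, part or all of which could be technical.

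The primitive streak is the structure of the early embryo through which epiblast cells leave to form mesoderm and definitive endoderm. WNT3, a secreted ligand, is needed for it to form, and Nodal and BMP signals act with it. The T-box factor T and the homeodomain factors encoded by Mixl1, Evx1 and Gsc mark the streak, Gsc at its anterior end, and the basic helix-loop-helix factor MESP1 marks the first mesoderm that leaves it. Gata2, Msx1, Twist1 and Isl1 act later, in blood progenitors, in limb and head mesenchyme and in heart progenitors. Undifferentiated ES cells express most of these genes weakly, and mixed cultures can hold a few cells that have begun to differentiate. On bulk samples such as these, fewer expressing cells and less RNA per cell cannot be told apart.

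Arrays were alike in brightness, with mean intensities of 442 to 473 and 46.4% to 49.0% of probes above background, here a detection p under 0.05. Over the tested probes, Pearson's r was 0.992 to 0.994 between arrays within a group and 0.970 to 0.983 across the 2 groups. The single Rest probe was above background on none of the 6 arrays, so these arrays give no check of the knockdown. All 10 ES cell markers were bright enough to test. Of these, 2 fell, 1 rose and 7 did not pass the test, with a median log2 change of -0.08. The 7 were Nanog, Sox2, Esrrb, Klf4, Dppa5a, Utf1 and Tdgf1. The growth factor gene Fgf4 fell by 1.44 and the pluripotency factor gene Pou5f1 by 0.63 on the log2 scale, Zfp42 rose 1.58-fold, and Nanog (log2 change -0.10, adjusted p = 0.516) did not pass the test.

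Of the 10 regulators, 6 had a probe bright enough to be tested, namely Gsc, Gata2, Msx1, Twist1, Isl1 and Evx1. The other 3 genes with probes, Mixl1, Mesp1 and Wnt3, were below background on all 6 arrays. In REST shRNA cells, 4 of the tested genes fell (Gata2, Twist1, Gsc and Msx1), 1 rose (Isl1) and 1 did not pass the test (Evx1). A fall was called for 13.1% of all 12406 tested probes, a rise for 12.8% and either for 25.9%. The median log2 change was -0.83 over the 6 tested genes and -0.01 over all tested probes. Since the genes were chosen with earlier results of these data known, these figures do not test the genes as a set. These calls came from limma with Benjamini-Hochberg adjustment over all tested probes, at an adjusted p under 0.05.

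**Figure D1:**
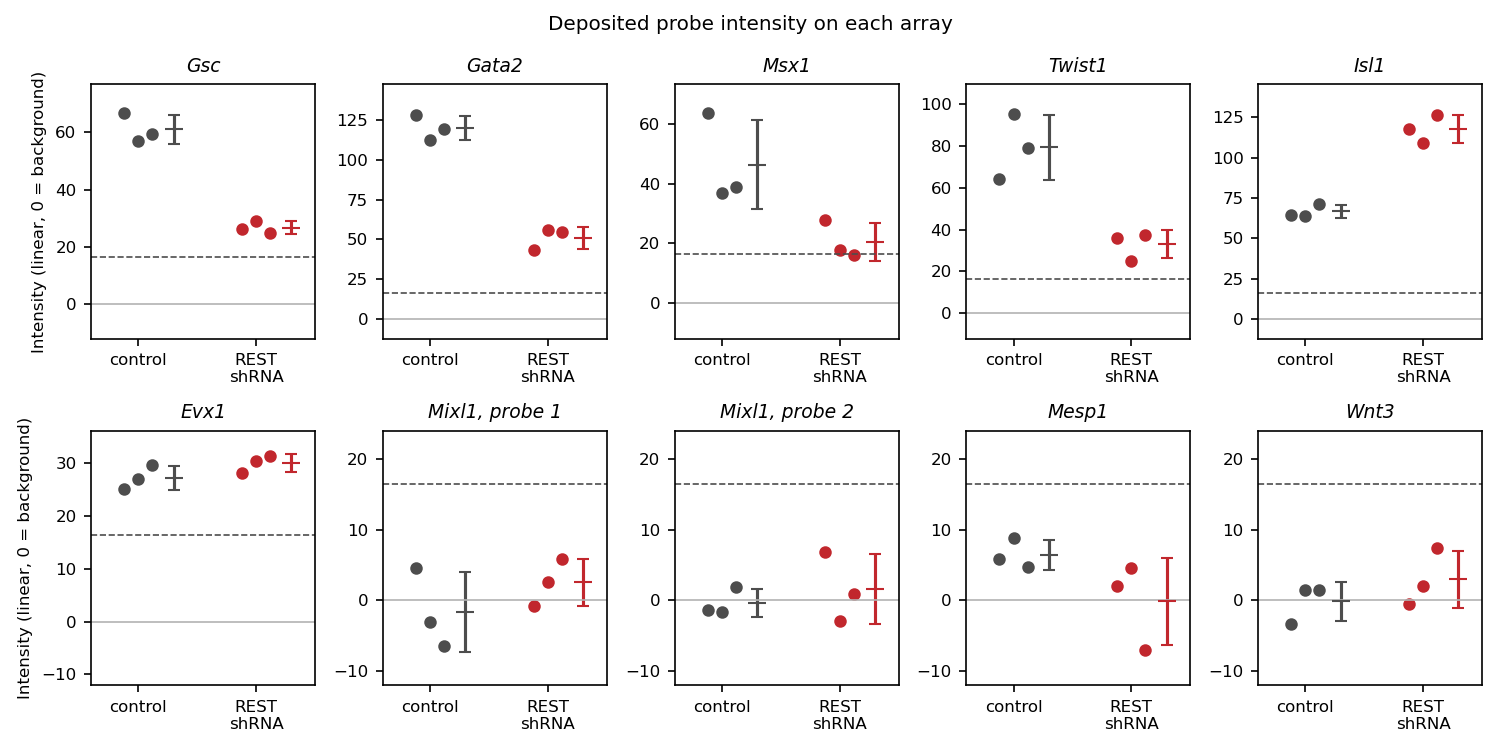
Deposited intensity (linear, background at 0) of each of the 10 probes on each array. Points are arrays, grey for control and red for REST shRNA, with mean ± SD of 3 beside them, and the dashed line at 16.5 is the highest of the 6 arrays' lowest intensities above background. Gsc, Gata2, Msx1 and Twist1 are lower in every knockdown array, Isl1 is higher, Evx1 overlaps, and Mixl1, Mesp1 and Wnt3 lie under the line.

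Gata2, a zinc finger factor of blood progenitors that also acts in trophoblast and in some neurons, fell in the knockdown cells. Its intensity was 127.8, 112.5 and 118.9 on the control arrays and 43.2, 55.7 and 54.5 on the knockdown arrays. The 2 groups were far apart, with the lowest control array at about double the highest knockdown array. On the normalized log2 scale Gata2 went from 7.09 ± 0.03 to 6.04 ± 0.18 (SD, n = 3), a change of -1.04 ± 0.12 (SE; limma adjusted p = 0.00075). It was the only one of the 6 called with at least a 2-fold fall (2.06-fold), a size reached downward by 1.06% of tested probes.

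Twist1 encodes a basic helix-loop-helix factor of head mesenchyme that also takes part in the loss of epithelial character. Its intensity was 64.0, 95.0 and 78.9 in control and 36.1, 25.2 and 37.6 in knockdown cells. No knockdown array reached the lowest control array, although the control arrays were themselves spread widely. The level fell from 6.57 ± 0.31 to 5.58 ± 0.20 (SD, n = 3), a log2 change of -0.99 ± 0.17 (SE; limma adjusted p = 0.00398).

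Gsc, the homeodomain factor of the anterior streak and organizer, varied little within groups. Its intensity was 66.7, 57.1 and 59.4 in control and 26.1, 29.2 and 25.0 in knockdown cells. On the log2 scale the level went from 6.28 ± 0.02 to 5.39 ± 0.07 (SD, n = 3), a change of -0.89 ± 0.10 (SE; limma adjusted p = 0.000743). The gap between the groups, 0.78 on the log2 scale, was many times the spread within either.

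Msx1, a homeodomain factor downstream of BMP signals in limb and craniofacial mesenchyme, was the dimmest of the genes that fell. Its intensity was 63.7, 36.7 and 38.8 in control and 27.7, 17.7 and 15.9 in knockdown cells. Control replicate 1 stood above the other control arrays, and knockdown replicate 3 was not above background (detection p 0.0539). The level fell from 5.94 ± 0.26 to 5.17 ± 0.21 (SD, n = 3), a log2 change of -0.77 ± 0.16 (SE; limma adjusted p = 0.00885). Without control replicate 1 the log2 change was -0.62 (adjusted p = 0.0257).

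Isl1 moved the other way. It encodes a LIM-homeodomain factor found in progenitors of the heart's second field and in motor and sensory neurons. Its intensity was 64.5, 64.2 and 71.5 in control and 118.1, 109.0 and 126.4 in knockdown cells, so that every knockdown array was well above every control array. The level rose from 6.38 ± 0.12 to 7.06 ± 0.10 (SD, n = 3), 1.60-fold, with a log2 change of 0.68 ± 0.11 (SE; limma adjusted p = 0.00353).

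Evx1, an even-skipped homologue of the posterior streak that is also used in spinal interneurons, was above background on all 6 arrays, close to the limit of detection. Its intensity was 25.1, 27.1 and 29.6 in control and 28.2, 30.5 and 31.4 in knockdown cells, and the groups overlapped. The log2 change was 0.04 ± 0.11 (SE, n = 3; limma adjusted p = 0.786), with a 95% interval from -0.19 to 0.28. A change as large as that of any of the 5 called genes lies outside this interval. At its low signal the offset added during background correction compresses such differences.

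The probes of Mixl1, a homeodomain factor of the streak, had mean intensities of -1.63 ± 5.67 and -0.37 ± 1.97 (SD, n = 3) in control and 2.53 ± 3.30 and 1.63 ± 4.94 in knockdown cells, where 0 is background. Mesp1 had 6.47 ± 2.11 in control and -0.13 ± 6.16 in knockdown cells. For Wnt3 the means were -0.13 ± 2.74 and 2.97 ± 4.04. The lowest detection p among these 4 probes on any array was 0.123, for Mesp1 on control replicate 2. No fold is given for them, and a difference was not detectable at this signal.

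The groups did not overlap for 5 of the 6 tested genes, all except Evx1. This held for 43.3% of all tested probes, 22.1% with the knockdown lower and 21.3% with it higher. With 3 samples against 3, a two-sided exact permutation test of 1 gene cannot give a p below 0.10, which is the value that each of these 5 genes had. All 4 genes that fell were called with at least a 1.5-fold fall, as were 6.13% of tested probes, and the rise of Isl1 passed 1.5-fold, as did 6.6%. That fold counts point estimates. Against the stricter question of whether the change exceeds 1.5-fold, none of the 5 passed (lowest adjusted p = 0.118, for Gata2).

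**Figure D2:**
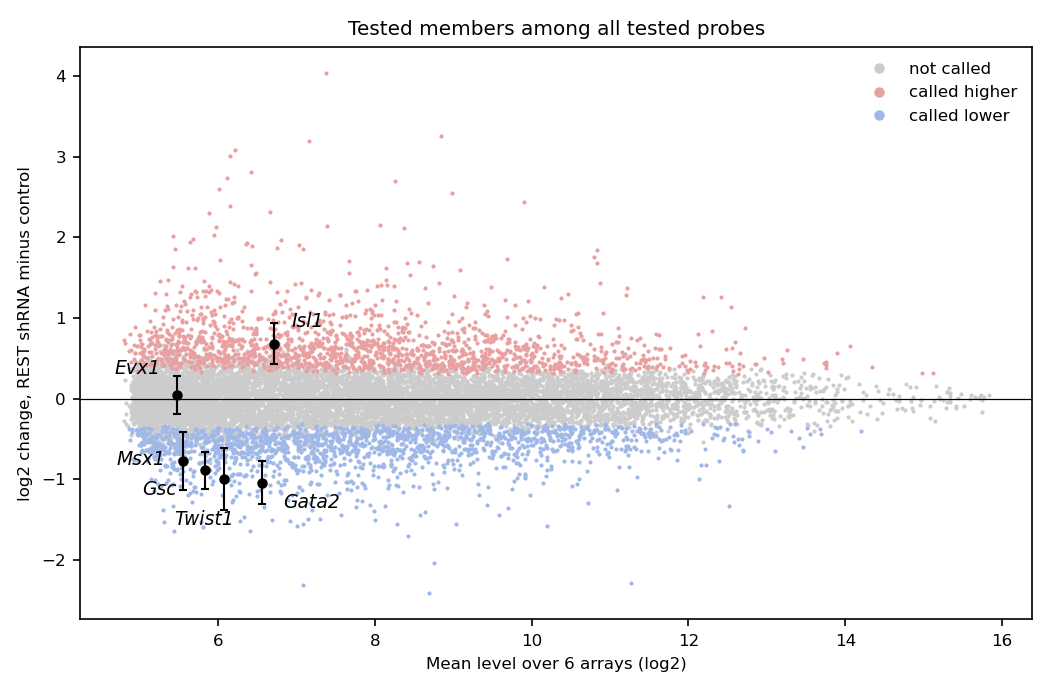
Change of each of the 12406 tested probes (vertical axis, log2, REST shRNA minus control) against its mean level over the 6 arrays (horizontal axis, log2). Pale dots are probes by call, and black points are the 6 tested regulators with 95% intervals. All 6 lie at the dim end of the range, with 4 below 0, Isl1 above it and Evx1 at 0.04.

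How far each gene moved depended on how the background was handled, since all 6 were dim. The ratio of mean background-subtracted intensities, control over knockdown, was 2.34 for Gata2, 2.41 for Twist1, 2.28 for Gsc and 2.27 for Msx1. For Isl1 the ratio of knockdown over control was 1.77. The model folds were smaller (1.71 for Msx1 and 1.85 for Gsc). They come after background correction, an offset of 16 and normalization between arrays, and the part of each step was not tested. With an offset of 50 the log2 change was -0.55 for Gsc, -0.66 for Twist1 and -0.45 for Msx1. Without background correction it was -0.51 for Msx1. In that setting each array's lowest value was subtracted and 16 added instead. All 5 calls held in these settings and in the authors' ratios, where the log2 changes were -0.85 for Gata2, -0.78 for Twist1, -0.68 for Gsc, -0.61 for Msx1 and 0.71 for Isl1. Of all tested probes, 30.8% were called with an offset of 50, 28.9% without background correction and 24.4% in the authors' ratios, against 25.9% as reported.

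Leaving out any 1 array kept all 5 calls. The largest adjusted p was then 0.00442 for Gsc and for Gata2, 0.0155 for Isl1, 0.0161 for Twist1 and 0.0361 for Msx1. Over the same 6 fits the share of all tested probes called ranged from 16.4% to 21.7%.

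The 5 genes that moved are shown by the sequence before their transcript starts, so that the ones that fell together can be set beside the one that rose. The sequences are the 250 bases before the start in RefSeq (mouse build GRCm38.p6), 5′ to 3′ on the gene's strand, and for Gata2 those before the second of 2 listed starts. Capitals mark CCAAT (on either strand) and TATAAA.
Gsc, chr12:104473237-104473486, - strand: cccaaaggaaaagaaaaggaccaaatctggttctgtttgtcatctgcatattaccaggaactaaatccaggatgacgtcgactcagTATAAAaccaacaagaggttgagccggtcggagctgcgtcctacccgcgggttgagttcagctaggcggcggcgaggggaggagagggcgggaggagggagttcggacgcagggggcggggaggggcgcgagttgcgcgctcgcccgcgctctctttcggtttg
Gata2, chr6:88198414-88198663, + strand: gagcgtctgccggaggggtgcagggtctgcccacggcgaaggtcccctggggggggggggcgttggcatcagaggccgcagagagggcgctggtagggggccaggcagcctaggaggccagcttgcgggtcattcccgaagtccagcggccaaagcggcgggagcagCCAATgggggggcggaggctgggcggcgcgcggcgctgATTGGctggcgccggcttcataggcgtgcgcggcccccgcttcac
Msx1, chr5:37824586-37824835, - strand: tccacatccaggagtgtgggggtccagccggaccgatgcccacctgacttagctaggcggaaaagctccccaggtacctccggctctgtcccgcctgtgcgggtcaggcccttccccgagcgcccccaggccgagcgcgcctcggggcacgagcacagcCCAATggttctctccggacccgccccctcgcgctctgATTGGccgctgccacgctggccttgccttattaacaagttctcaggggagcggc
Twist1, chr12:33957421-33957670, + strand: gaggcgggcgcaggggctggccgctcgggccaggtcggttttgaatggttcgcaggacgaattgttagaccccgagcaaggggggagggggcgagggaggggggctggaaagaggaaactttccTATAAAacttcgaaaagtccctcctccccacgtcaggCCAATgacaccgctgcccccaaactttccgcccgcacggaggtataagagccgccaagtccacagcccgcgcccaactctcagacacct
Isl1, chr13:116309689-116309938, - strand: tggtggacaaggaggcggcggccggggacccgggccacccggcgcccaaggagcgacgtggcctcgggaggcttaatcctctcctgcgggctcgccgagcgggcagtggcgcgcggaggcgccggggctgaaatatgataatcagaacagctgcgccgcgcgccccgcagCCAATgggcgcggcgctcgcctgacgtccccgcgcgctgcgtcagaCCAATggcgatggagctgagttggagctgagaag

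Of the 10 regulators, 9 matched the RefSeq promoter table, with 10 windows in all, and Mixl1 did not. CCAAT was in 6 of the 10 windows, among them those of Isl1, Msx1 and Twist1 and the one shown for Gata2, as against 33.8% of all 32851 windows of that length. Isl1 had it at positions -80 to -76 and -34 to -30 before the start. In the Gata2 window shown and in Msx1 it occurred once on each strand, at -83 and -45 in Gata2 and at -91 and -54 in Msx1. The window before the first listed start of Gata2 held neither CCAAT nor TATAAA. Which of the 2 starts gave the RNA measured here was not tested. TATAAA was in the windows of Gsc and Twist1, at -164 and -126, and in 12.4% of all windows. None of the marked matches overlapped another.

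REST binds a long element, RE1, whose left and right parts were searched as TTCAGCACC and GGACAGC on both strands. Neither was in any of the 10 windows, and 5.57% of all windows held at least 1 of them. A T-box half-site, TTCACACCT, was in none of the 10 and in 0.237% of all. These letters not being in a window says nothing of REST or T binding elsewhere. The 5 windows shown held 18 to 33 CpG dinucleotides (33 in Isl1), and the median over all windows was 6.

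Other genes of the streak and of nascent mesoderm were mostly too dim. Of 28 listed, 27 had a probe and 12 were tested, of which 3 fell, 0 rose and 9 did not pass the test, with a median log2 change of -0.09. Beside the counts of this list and those that follow, 13.1% of all tested probes were called lower and 12.8% higher. Dll1, a Notch ligand of presomitic mesoderm, fell by 1.28 ± 0.19 on the log2 scale (SE, n = 3; limma adjusted p = 0.0021). The growth factor Fgf8, which drives cells out of the streak, fell by 1.08 ± 0.13 (adjusted p = 0.00102) and was above background on 2 of 3 knockdown arrays. Wnt3a, the ligand that maintains posterior mesoderm, fell by 0.65 ± 0.16 (adjusted p = 0.0166) and was above background on 1 knockdown array. With the other knockdown arrays held at the limit of detection, Wnt3a was 1.36-fold lower and Fgf8 1.97-fold lower. The Wnt3a call was lost without any 1 of 4 arrays (control replicates 1 and 2, knockdown replicates 2 and 3), with an adjusted p of up to 0.0608, and the list's count of falls ranged from 2 to 4 over the fits that left out 1 array. The T-box genes Tbx6 (log2 change -0.07) and Tbx3 (-0.04) and the Wnt target Sp5 (-0.05) did not pass. Eomes, Lhx1, Foxc1, Foxc2, Meox1, Hand1 and 6 others of the list were above background on no array.

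The list of Nodal, BMP and Wnt signalling genes upstream of the streak had 22 tested members. It also held Otx2, which is not a component of these signals. The calls were 3 up, 1 of them Otx2, and 4 down, and 15 did not pass the test, with a median log2 change of -0.03. Otx2, a homeobox gene of epiblast and forebrain, rose from 7.92 ± 0.30 to 9.56 ± 0.09 (SD, n = 3), 3.12-fold (limma adjusted p = 0.000286). The other called genes changed less. The ligand gene Bmp4 had a log2 change of 0.38, the signal transducer Smad3 -0.46 and the protease gene Furin -0.47, and each lost its call without any 1 of at least 4 of the 6 arrays. A second Furin probe had a log2 change of -0.25 (adjusted p = 0.172). Also called were Lefty1 (log2 change -0.51), Foxh1 (-0.48, with -0.60 for a second probe) and Porcn (0.31), at a limma adjusted p of at most 0.0486. Over the 6 such fits 1 to 2 of the list rose and 0 to 2 fell, and in the authors' ratios 5 rose and 0 fell. Nodal itself had a log2 change of 0.45 ± 0.15 (SE, n = 3; limma adjusted p = 0.0601).

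Later lineages in which Isl1, Gata2, Msx1 and Twist1 act were represented by few tested genes. In cardiac mesoderm, 5 of 12 genes with a probe were tested and 1 fell, the myosin light chain Myl4 (log2 change -0.69 ± 0.13, SE, n = 3; limma adjusted p = 0.0056). In blood and endothelium 4 of 12 were tested and 1 rose, the angiopoietin receptor Tek (0.48 ± 0.11, adjusted p = 0.0126), while Tal1, Runx1 and Gfi1b were above background on no array. Among 11 mesenchyme and neural crest genes with a probe, 5 were tested and none passed. Their log2 changes ran from -0.01 for Msx2 to 0.37 for Tcf15, and Twist2 was below background throughout.

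In neurons that use Isl1 or Gata2, 5 of 10 genes with a probe were tested. Phox2a, a homeodomain factor of noradrenergic neurons, fell by 1.05 ± 0.17 on the log2 scale (SE, n = 3; limma adjusted p = 0.00345). Pou4f1, a POU factor of sensory neurons, was below background on all 3 control arrays and above it on all 3 knockdown arrays, at least 1.19-fold higher. That bound sets the mean of the knockdown arrays against the limit of detection of each control array. Pou4f1 met the filter for testing only through the knockdown arrays, so its p-value is not given. Isl2, Mnx1 and Lhx4 were below background throughout.

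Of 7 tested genes of cell adhesion and epithelial-mesenchymal transition, the process by which cells leave the streak, 3 fell and 1 rose. Their median log2 change was 0.04, and over all tested probes 13.1% were called lower and 12.8% higher. The intermediate filament gene Vim fell by 0.54 ± 0.12, the fibronectin receptor subunit Itga5 by 0.60 ± 0.10 and the protease gene Mmp2 by 0.62 ± 0.13 on the log2 scale (SE, n = 3; limma adjusted p at most 0.0105). A second Itga5 probe had -0.35 (adjusted p = 0.103). Esrp1, an epithelial splicing regulator, rose 1.67-fold (adjusted p = 0.0025). The adhesion gene Cdh1 (log2 change 0.04, adjusted p = 0.869) and the transition factor Zeb1 (0.21, adjusted p = 0.264) did not pass, and Cdh2 was below background throughout. Snai1, a transition factor of the streak list, did not pass either (log2 change -0.23, limma adjusted p = 0.502).

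**Figure D3:**
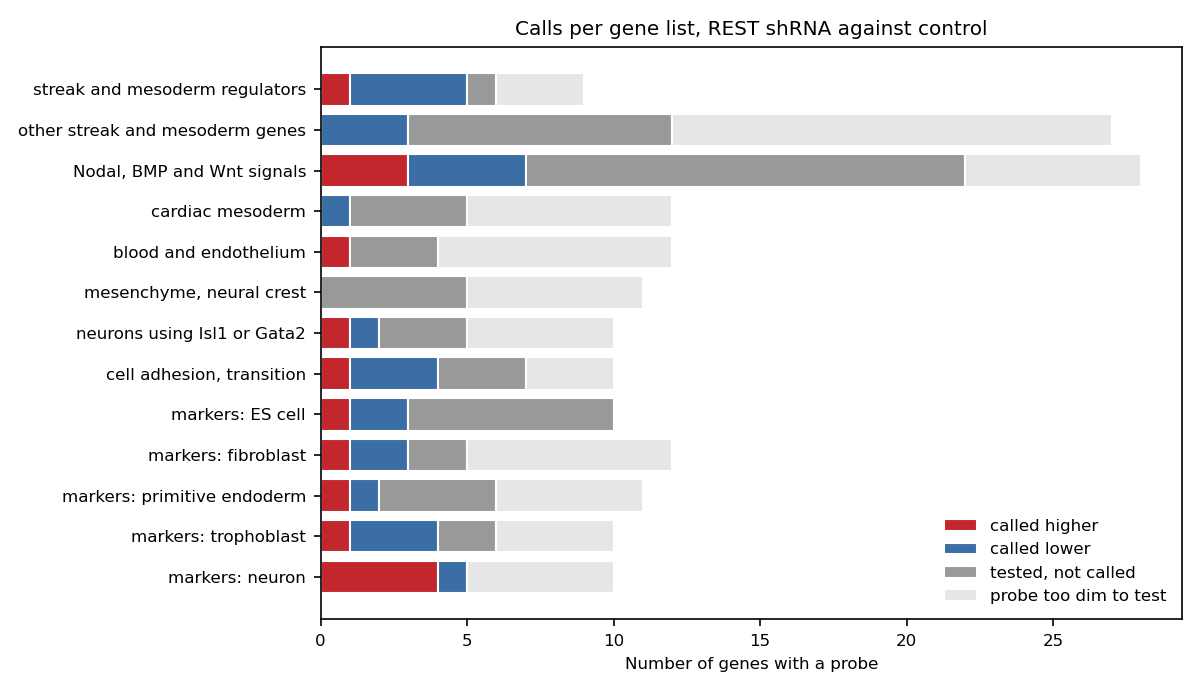
Number of genes with a probe in each list (horizontal axis), split by call in REST shRNA against control cells. Red is called higher, blue called lower, dark grey tested but not called, and light grey too dim to test. Of the 27 other streak and mesoderm genes with a probe, 15 were too dim to test, as were 3 of the 9 regulators. Called lower were 4 of the 6 tested regulators and 13.1% of all tested probes.

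Markers of other cell types that could share these genes were read beside them. Over all tested probes 13.1% were called lower and 12.8% higher, which applies to each marker count below. Twist1 and Msx1 are also fibroblast genes. Of 13 fibroblast markers, 12 had a probe and 5 were tested, of which 2 fell and 1 rose, and Col1a1, Col3a1, Dcn, Lum and Postn were above background on no array. The summed intensity of the 12 ranged from 1643 to 2021 in control and from 1201 to 1278 in knockdown cells. Most of it came from Timp1 (log2 level 10.22 in control and 9.42 in knockdown cells) and Thy1 (9.09 and 8.73). Thy1 was not called (limma adjusted p = 0.0616). Timp1 fell by 0.80 ± 0.10 (SE, n = 3; limma adjusted p = 0.00132) and 1 of 2 Acta2 probes by 0.44 (adjusted p = 0.0271) on the log2 scale, whereas Col6a1 rose 3.28-fold. The second Acta2 probe had a log2 change of 0.23 (adjusted p = 0.257), and the call of the first was lost in 5 of the 6 fits that left out 1 array.

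Gata2 is also a trophoblast gene. Of 10 trophoblast markers, all with a probe, 6 were tested, 3 fell and 1 rose, and Gata3, Elf5 and Hand1 were above background on no array. Their summed intensity ranged from 3480 to 4589 in control and from 6575 to 7548 in knockdown cells, most of it from Tfap2c, which rose 1.78-fold, while Krt8 fell by 0.84 and Krt18 by 0.57 on the log2 scale, the latter not called in 4 of the 6 fits that left out 1 array. Ascl2, 1 of the 3 that fell, was above background on no knockdown array and at least 1.47-fold lower. It met the filter for testing only through the control arrays, so its p-value is not given. Isl1 is also a neuronal gene, and of 10 neuron markers 5 were tested, 4 rose (Syp, Map2, Elavl3 and Rbfox3) and 1 fell (Stmn2). Their summed intensity ranged from 2166 to 2446 in control and from 3029 to 3707 in knockdown cells, while Tubb3, Dcx, Elavl4, Snap25 and Nefl were above background on no array. Syp and Stmn2 weighed most in the knockdown sum. On the log2 scale Syp went from 7.22 in control to 10.48 in knockdown cells and Stmn2 from 10.85 to 10.36. Map2, Elavl3 and Rbfox3 stood at 6.80 to 8.50 in knockdown cells. The primitive endoderm markers had sums of 2468 to 2592 in control and 2229 to 2295 in knockdown cells, with 1 of 6 tested higher (Dab2) and 1 lower (Sparc). What part any of these cells had in the changes of the regulators was not tested.

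The genes whose arrays followed each called regulator most closely were found by the root mean square difference of centred log2 values over the 6 arrays, among 8739 other genes. Isl1 was nearest to Rassf5, Dppa3 and Hmgxb4, which differed from it by 0.03 to 0.04 on the log2 scale. Gata2 was nearest to Tgm1, Pltp and Tgfbi (0.05 to 0.09), and Gsc to Apobec1, Tagln3 and Mov10 (0.05 to 0.07). Msx1 was nearest to Kazn, Cxcl14 and Got1l1 (0.05 to 0.08). For Twist1 the nearest were 3 histone genes, H4c6, H3c6 and H4c12, at 0.10 each. No 2 of the 4 regulators that fell were among each other's nearest 3 genes. Among 8739 genes that would be rare in any case, and the measure mostly follows the size of the difference between groups. Shared control of these genes was not tested.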

How the data were processed

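The authors deposited a table of linear probe intensity per array, not normalized between arrays per its file name, in which 25.3% to 26.3% of each array's values lie below 0. Beside each intensity stands a deposited detection score that rises with signal, and the detection p was taken as 1 minus this score. The authors' other table gives linear ratios. From the values, each ratio equals the intensity minus the array's lowest value, plus 0.1, times an array factor over a probe reference (100% of values within 0.01 on the log2 scale). The software of both is not given in the sources used here. Per the labels, biotinylated cRNA was hybridized.

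In limma 3.58.1 (R 4.3.3), intensities had their background corrected by normal-exponential convolution (offset 16), were quantile normalized and put on the log2 scale. The 12406 of 25697 probes above background (detection p under 0.05) on 3 or more of the 6 arrays were tested with limma's linear model, group as the only term, and p-values were adjusted by Benjamini-Hochberg over all of them. The fit was tested on simulated data. A gene stands at its brightest tested probe. The regulators and gene lists were chosen with earlier results of these data known. The genes named are all 10 regulators, in each list up to 4 called genes with the smallest p, and 3 nearest genes per called regulator. Others were named after their values were seen, as were the marker genes given as examples. Probe positions are not used here. Promoters come from RefSeq. The alternatives are in the closing section.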

Additional observations from a re-analysis of the deposited data

How the results depend on the processing

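The counts of regulators called higher (1) and lower (4) were the same in 15 of the 17 other settings. With probes required to have a detection p under 0.01 on all 6 arrays, 3 of the regulators were tested and 1 was called lower. Gsc, Msx1 and Twist1 met this limit on every control array but not on every knockdown array, so their low knockdown signal left them out. With this filter 33.2% of tested probes were called. With a minimum fold of 1.5 in the test, 0 were higher and 0 lower, and over all probes 96 were higher and 35 lower, against 1590 and 1619. The authors' ratios gave 2118 higher and 907 lower probes, a share of 70.0% higher in place of 49.5%. Leaving out 1 array gave 1030 to 1356 probes higher and 1005 to 1365 lower, with 1 regulator higher and 4 lower each time. The fewest came without control replicate 2 (1031 and 1005) and without knockdown replicate 3 (1030 and 1007), and the cause was not tested. Evx1 was called in no setting. Leaving out 1 array, its log2 change ran from -0.0065 (without control replicate 1) to 0.092 (without control replicate 3), and in the authors' ratios it was 0.098. With the replicate block all 5 calls held (highest adjusted p = 0.0091, for Twist1) and 23.2% of tested probes were called. Same-numbered arrays had correlations of -0.06, 0.03 and 0.04 between their deviations from the group means, too low to treat the numbers as a pairing. Settings for the other lists were added after seeing the data. Signal over background limits every statement on these genes.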
